A study of Mus musculus with 3 samples.

Results

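The 8 genes described here, which encode stem cell niche factors, were followed across the cells of the mouse jaw: the ligand genes Cxcl12, Kitl, Angpt1, Flt3l, Il7 and Jag1, the receptor gene Lepr and the adhesion gene Vcam1. They were taken by symbol, and all 8 were among the 31253 genes of the count tables. The samples were 3 single-cell RNA libraries of dissociated jaw tissue, each made from the combined cells of 8 male C57BL/6 wild-type mice of 10 weeks. In the library labelled 1d the mice had received 10 Gy to the head and neck and were killed 1 day later, in the library labelled 7d the same dose was followed by 7 days, and in the library labelled Ctrl the mice were controls. Tissue of all 3 groups was digested with collagenase II, frozen and thawed, so cells that survive these steps poorly may be missing from every library. Because each group is 1 library, differences between groups have no replicate check and carry no p-value, and the 95% intervals cover only counting error.

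Niche factors are signals that surrounding cells give to blood-forming cells. In marrow, CXCL12 holds stem cells and lymphoid progenitors in place through CXCR4, and stem cell factor (Kitl) sustains stem cells, progenitors and mast cells through KIT. Perivascular stromal cells that carry the leptin receptor, together with endothelial cells of the sinusoids, are the best known sources of both. Angiopoietin 1 acts on TEK of endothelium, FLT3 ligand on dendritic and multipotent progenitors, IL-7 on lymphocytes and Jagged 1 on Notch receptors, while VCAM1 binds the integrin that Itga4 and Itgb1 encode.

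By the GRCm38 annotation, Cxcl12 lay on chromosome 6 at 117168535 to 117181367 (plus strand) and Lepr on chromosome 4 at 101717404 to 101815352 (plus strand). Kitl lay on chromosome 10 at 100015630 to 100100416 (plus strand), and Angpt1 on chromosome 15 at 42424723 to 42676977 (minus strand). Chromosome 3 held both Vcam1, at 116109949 to 116129688, and Il7, at 7569994 to 7613760, on the minus strand. Jag1 lay on chromosome 2 at 137081456 to 137116644 (minus strand) and Flt3l on chromosome 7 at 45129788 to 45136432 (minus strand). All are protein-coding genes. The gene model Gm45713 overlaps Flt3l on the same strand and had 0 UMIs. Whether the overlap affected the Flt3l counts was not tested.

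RefSeq promoter windows (GRCm38.p6) were matched for 5 of the 8 genes. Those of Cxcl12 and Lepr are shown because these are the member genes with the highest share of their molecules in mesenchymal cells in every library. Each window ends at the base before the first annotated exon. The Cxcl12 window is chr6:117168285-117168534 on the plus strand, with 64.4% G and C, and the Lepr window is chr4:101717157-101717403 on the plus strand, with 58.7%. Capitals mark the letters of 3 motifs on either strand: GGGCGG (Sp1 GC box), TGGGAA (RBPJ) and an NF-kB motif of 10 bases, given by its name alone.
Cxcl12: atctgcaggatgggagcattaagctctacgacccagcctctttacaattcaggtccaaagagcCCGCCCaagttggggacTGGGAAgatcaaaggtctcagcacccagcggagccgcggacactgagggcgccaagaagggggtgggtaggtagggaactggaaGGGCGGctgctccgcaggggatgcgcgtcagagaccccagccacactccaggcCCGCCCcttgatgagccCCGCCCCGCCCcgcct
Lepr: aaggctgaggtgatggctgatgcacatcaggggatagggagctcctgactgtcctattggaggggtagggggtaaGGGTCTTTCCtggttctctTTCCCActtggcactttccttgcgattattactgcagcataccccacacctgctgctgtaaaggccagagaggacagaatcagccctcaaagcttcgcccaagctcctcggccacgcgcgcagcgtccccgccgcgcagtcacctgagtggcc
The Cxcl12 window held 5 GC boxes, 2 of which share bases, and 1 RBPJ match. The Lepr window held 1 RBPJ and 1 NF-kB match and no GC box. Of 32851 promoter windows in the table, 32.7% held the GC box, 21.6% the RBPJ letters and 2.82% the NF-kB letters. Neither window held the FOX letters TAAACA, which were in 12.03% of the windows. The TATA box letters TATAAA, in 12.4%, and an EBF motif given by its name alone, in 0.779%, were in neither as well. These matches describe letters and are not evidence of binding.

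After filtering, 8623, 4879 and 6094 cells remained in Ctrl, 1d and 7d, with a median of 2419, 5022 and 3816.5 UMIs (unique molecular identifiers, each counted as 1 RNA molecule). They fell into 26 clusters, and class names below stand for "-like" cells by their marker genes. The mesenchymal pool joined cluster 13 (542 cells), led by Bglap and Col1a1, with cluster 17 (410 cells), led by Bmp2 and Enpp2. Both are called by number, since markers of other cell types came close in each and only 49 pool cells were osteoblast-like when the pool was clustered again. It held 642, 224 and 86 cells, or 7.45%, 4.59% and 1.41% of the kept cells, and endothelial cells numbered 54, 9 and 24. Any 2 libraries shared 12 to 24 cell barcodes, at most 0.212% of the barcodes of the first. Levels are counts per 1000000 UMIs (CPM) of a class. A ratio was called past 2-fold where it was at least 2 or at most 0.5 with at least 20 UMIs over the 2 libraries.

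Different patterns of origin appeared among the 8 genes. Cxcl12 and Lepr molecules came mainly from mesenchymal and endothelial cells, Kitl and Jag1 from these together with epithelium and myeloid cells, Angpt1 and Vcam1 from mesenchyme and blood cells, and Flt3l mostly from blood cells, while Il7 was barely detected. The mesenchymal pool was the largest single source of 7 of the 8 genes in Ctrl, of 5 in 1d and of 2 (Cxcl12 and Lepr) in 7d. The place of Il7 among the 7 rests on 4 of its 14 UMIs. The pool was also a smaller part of the cells in 1d and 7d, and how far the loss of first place follows from that was not tested.

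**Figure D1:**
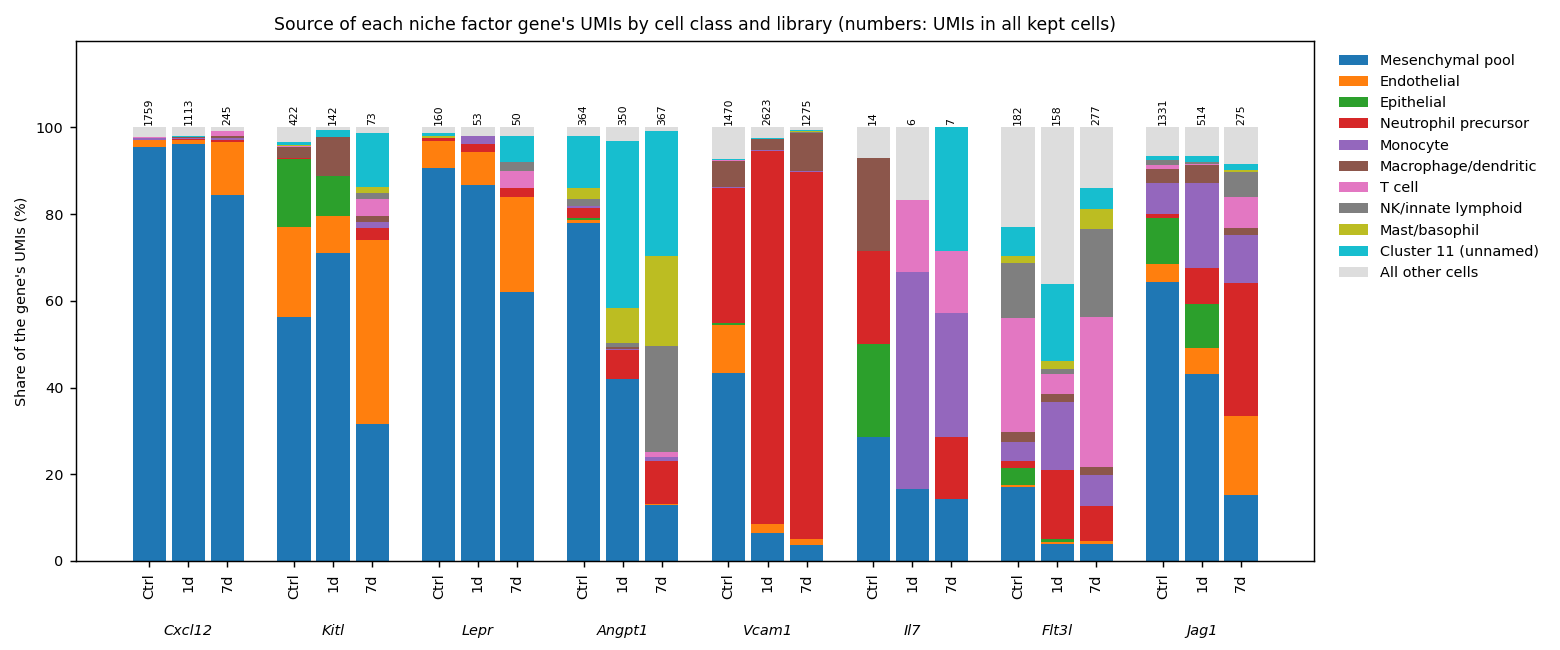
Share of each gene's UMIs (percent, vertical axis) by cell class in Ctrl, 1d and 7d, as stacked bars, 3 per gene, with the gene's UMI total above each bar and all other cells in grey. The mesenchymal share of Cxcl12 is 95.5%, 96.2% and 84.5%, while that of Angpt1 is 78.0%, 42.0% and 12.8%.

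Cxcl12, the chemokine that retains blood cells in marrow, was a mesenchymal and endothelial transcript. The pool held 1679 of 1759 UMIs in Ctrl (95.5%), 1071 of 1113 in 1d (96.2%) and 207 of 245 in 7d (84.5%). Endothelium held 1.71%, 0.809% and 12.2%. With the libraries joined, the level was 311 CPM (299 to 322) in the pool, then 161 CPM (125 to 204) in endothelium, and these intervals did not overlap. In 7d alone endothelium had 254 CPM and the pool 249 CPM. The next class was cluster 20, cells found only in Ctrl, at 28.1 CPM (16.4 to 45.0), and every other class was lower. A Cxcl12 UMI was found in 56.6% of pool cells at a median of 7722 UMIs. Only 0.152% of T cells, which do not make the chemokine, held one at a median of 3278.5 UMIs. After each cell was thinned to 1000 UMIs the pool shares were 17.4% in Ctrl, 22.9% in 1d and 20.9% in 7d, and the unthinned ones 55.0%, 61.6% and 55.8%; 15, 19 and 0 cells were too shallow to be thinned.

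Kitl, the gene of stem cell factor, had its highest level in endothelium and its largest number of molecules in the pool. The joined level was 306 CPM (256 to 363) in endothelium, 62.0 CPM (49.1 to 77.3) in epithelium and 37.9 CPM (34.1 to 42.0) in the pool, and no neighbours in this order overlapped. The pool held 56.2% of 422 UMIs in Ctrl, 71.1% of 142 in 1d and 31.5% of 73 in 7d. The endothelial shares were 20.9%, 8.45% and 42.5%, so that the 24 endothelial cells of 7d held more Kitl molecules (31) than the 86 pool cells (23). A UMI of Kitl was found in 58.6% of endothelial cells at a median of 4121 UMIs and in 18.4% of pool cells. The background in T cells was 0.122%.

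Lepr, the leptin receptor gene that marks niche stroma in marrow, had most of its molecules in the pool and endothelium, as Cxcl12 had. Its joined level was 58.4 CPM (37.8 to 86.2) in endothelium and 23.3 CPM (20.3 to 26.6) in the pool, with non-overlapping intervals, and 1.65 CPM or less in every other class. The pool held 145 of 160 UMIs in Ctrl (90.6%), 46 of 53 in 1d (86.8%) and 31 of 50 in 7d (62.0%). Endothelium held 10, 4 and 11 UMIs. A UMI was seen in 23.0% of endothelial cells, 13.2% of pool cells and 0.0608% of T cells.

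Angpt1, which encodes the TEK ligand angiopoietin 1, was nearly absent from endothelium, with 3 UMIs in 87 cells, and was shared between mesenchyme and blood cells. The joined level was 78.1 CPM (64.4 to 93.9) in mast cells and basophils and 50.2 CPM (45.8 to 54.9) in the pool. Cluster 11 followed at 36.8 CPM (32.6 to 41.3) and NK and innate lymphoid cells at 20.5 CPM (16.7 to 25.0), and none of these 4 intervals overlapped. The order of the first pair was turned in Ctrl, with 38.3 CPM in mast cells and basophils and 45.3 CPM in the pool, and 119 of the 227 mast cells came from 7d while 642 of the 952 pool cells came from Ctrl. Cluster 11 stayed unnamed because it mixed megakaryocyte genes (Pf4, Itga2b) with genes of plasmacytoid dendritic cells (Ccr9, Siglech). At a finer clustering (Leiden resolution 2), 260 of its Angpt1 UMIs lay in 272 cells led by Pf4 and Itga2b, at 66.2 CPM.

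The whole-library level of Angpt1 was 10.1 CPM (9.11 to 11.2) in Ctrl, 8.80 CPM (7.90 to 9.78) in 1d and 9.21 CPM (8.29 to 10.2) in 7d, with overlapping intervals, while its sources differed. The pool gave 78.0% of the UMIs in Ctrl, 42.0% in 1d and 12.8% in 7d. Cluster 11 gave 12.1%, 38.6% and 28.9%, mast cells and basophils 2.47%, 8% and 20.7%, and NK cells 1.65%, 0.857% and 24.5%. Within NK cells the level was 29.8 CPM (90 UMIs in 1070 cells) in 7d, against 3.83 CPM (6 UMIs in 525 cells) in Ctrl, a ratio of 7.78 (3.44 to 21.8). The finer clusters that make up this class differed between the libraries. Finer cluster 17 held 34 cells in 7d and 395 in Ctrl, at 21.0 CPM (2 UMIs) in 7d and 3.29 CPM (4 UMIs) in Ctrl. Finer cluster 6 held 678 cells in 7d and 49 in Ctrl, at 24.5 CPM in 7d and 0 UMIs in Ctrl, and finer cluster 20 held 358 in 7d and 81 in Ctrl, at 41.3 CPM in 7d and 8.74 CPM (2 UMIs) in Ctrl. How far the ratio follows from this makeup was not tested. Mast cells and basophils had 79.0 CPM (28 UMIs) in 1d against 38.3 CPM (9 UMIs) in Ctrl, a ratio of 2.06 (0.947 to 4.97), and 88.6 CPM (76 UMIs) in 7d, a ratio of 2.31 (1.16 to 5.25). Past 2-fold either way were 12.4% of measured genes in NK cells in 7d, and 23.1% and 35.5% in mast cells in 1d and 7d. The 1d interval of the mast cells includes 1.

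Vcam1, the gene of an adhesion protein best known on inflamed endothelium, had its highest level there but most of its molecules in neutrophil precursors. The joined level was 537 CPM (470 to 611) in endothelium, 136 CPM (132 to 141) in neutrophil precursors and 89.8 CPM (83.9 to 96.0) in the pool. Macrophages and dendritic cells followed at 75.2 CPM (66.5 to 84.8), an interval that overlapped that of the pool. The pool gave 43.3% of UMIs in Ctrl, 6.48% in 1d and 3.76% in 7d, and neutrophil precursors 31.0%, 86.1% and 84.9%. Those precursors numbered 90, 672 and 628 cells. At the finer clustering the richest precursor cluster, led by Fcnb and Elane, held 1921 UMIs in 318 cells, and 251 of these cells had at least 1. Precursor levels were 172 CPM in 1d against 190 CPM in Ctrl, a ratio of 0.905 (0.818 to 1.00), and 87.9 CPM in 7d, a ratio of 0.463 (0.414 to 0.518; 21.1% of measured genes were past 2-fold either way). In the mixed macrophage and dendritic class a UMI was found in 5.74% of cells, and in T cells in 0.122%.

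Jag1, which encodes a Notch ligand, was highest in endothelium at 315 CPM (264 to 373), followed by epithelium at 154 CPM (133 to 177) and the pool at 117.6 CPM (111 to 125), with no overlap between neighbours. The pool held 64.3% of 1331 UMIs in Ctrl, 43.2% of 514 in 1d and 15.3% of 275 in 7d. In 7d, neutrophil precursors (30.5%) and endothelium (18.2%) held more than the pool. Monocytes had 20.9 CPM in 1d against 50.7 CPM in Ctrl, a ratio of 0.411 (0.308 to 0.549), and 7.23 CPM in 7d, a ratio of 0.143 (0.0919 to 0.216). The class joins 2 clusters whose cell numbers differed between the libraries. Cluster 14, the richer in Jag1, held 271 cells in Ctrl, 204 in 1d and 15 in 7d, and cluster 8 held 60 in Ctrl, 262 in 1d and 408 in 7d. Within cluster 14 Jag1 had 46.3 CPM in 1d and 76.2 CPM in Ctrl, a ratio of 0.608 (0.441 to 0.837), and 1 UMI in 7d. Within cluster 8 it had 7.01 CPM in 1d and 16.2 CPM (13 UMIs) in Ctrl, a ratio of 0.433 (0.209 to 0.936), and 7.15 CPM in 7d, a ratio of 0.442 (0.224 to 0.923). At the finer clustering, monocytes of finer cluster 9 numbered 50 in Ctrl, 231 in 1d and 332 in 7d. Their Jag1 ratios were 0.911 (0.218 to 8.09) in 1d and 1.08 (0.267 to 9.46) in 7d, on 2 UMIs in Ctrl. Finer cluster 28, led by Acp5, had 12 UMIs in 11 Ctrl monocytes, 4 in 24 of 1d and 7 in 75 of 7d. The part of this makeup in the monocyte ratios was not tested. Past 2-fold either way in monocytes were 15% of measured genes in 1d and 19.3% in 7d. In the mixed macrophage and dendritic class Jag1 had 3.21 CPM (4 UMIs) in 7d against 29.7 CPM (42 UMIs) in Ctrl, a ratio of 0.108 (0.0282 to 0.298), beside 18.4% of measured genes past 2-fold. T cells held 3.04 CPM, with a UMI in 0.852% of cells.

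Flt3l came mostly from lymphoid and other blood cells, and Il7 was too sparse to place. Flt3l, the ligand of FLT3, had 16.8 CPM (13.3 to 20.9) in NK cells, 13.1 CPM (7.90 to 20.5) in mast cells and 13.1 CPM (11.1 to 15.4) in T cells, levels whose intervals overlapped. T cells held 26.4% of 182 UMIs in Ctrl and 34.7% of 277 in 7d, while in 1d no class held over 17.7% of 158. Il7, which feeds early lymphocytes, had only 14, 6 and 7 UMIs in Ctrl, 1d and 7d. Of these the pool held 4, 1 and 1 and endothelium 0 in each library, so a difference was not detectable at this depth.

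**Figure D2:**
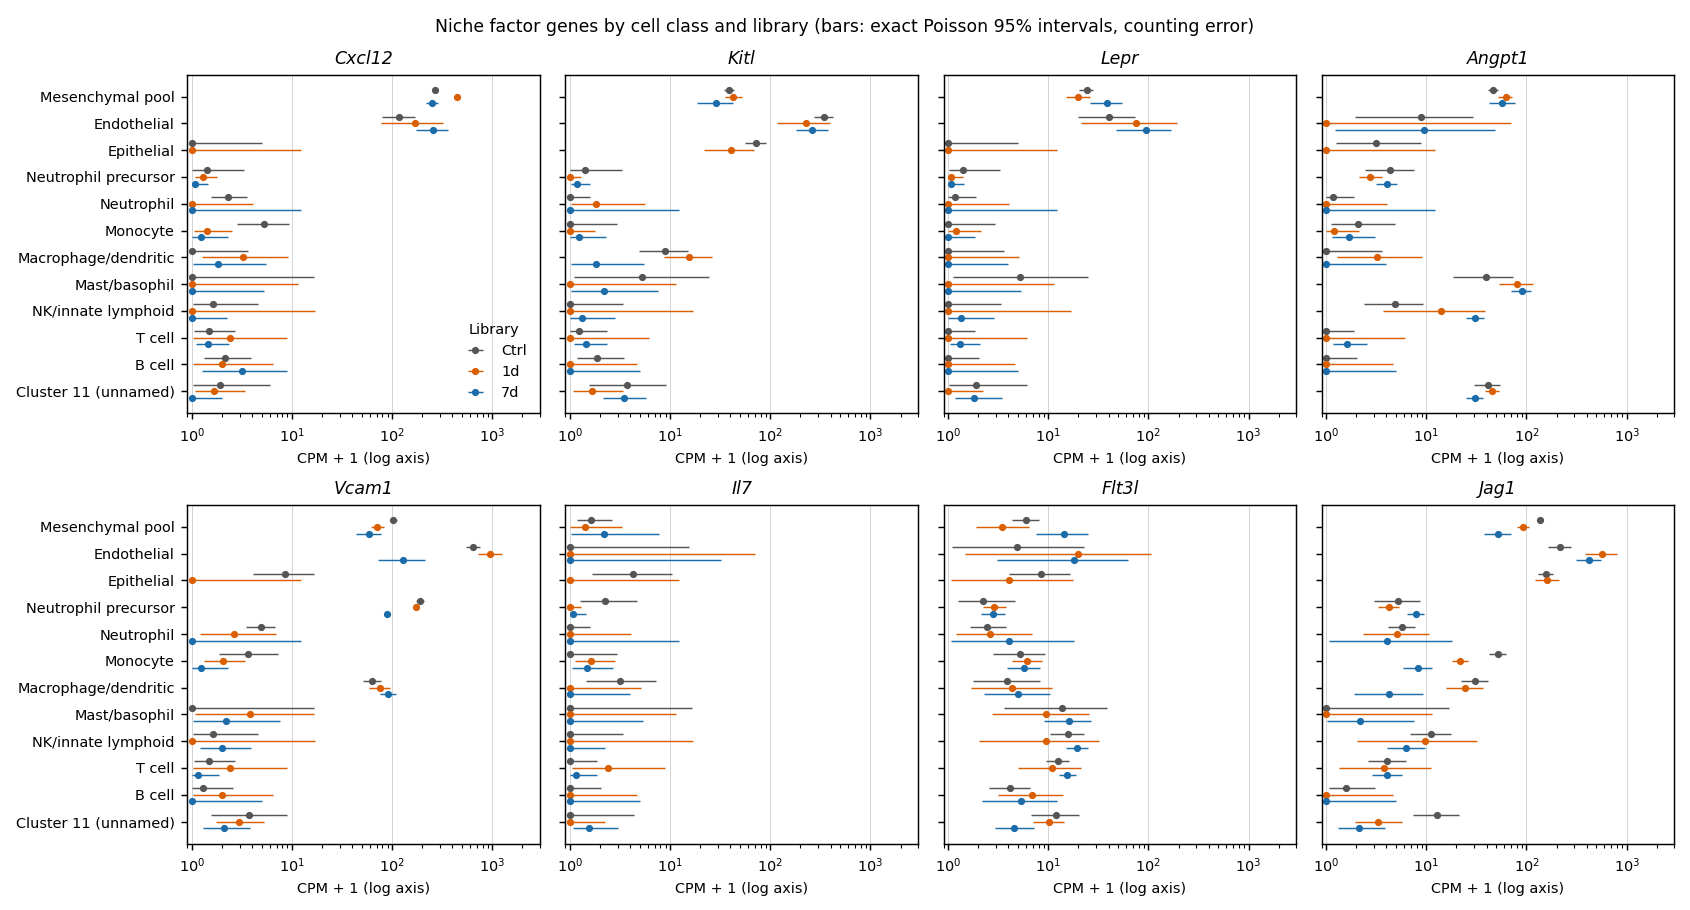
Level of each gene (CPM + 1, horizontal log axis) in 12 cell classes, one panel per gene and one point with its exact Poisson 95% interval per library of at least 5 cells of the class. In each library the endothelial point is the highest for Kitl, Lepr, Vcam1 and Jag1, and for Cxcl12 the pool and endothelium stand above every other class.

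Within the mesenchymal pool the factors were spread unevenly over 17 subclusters, and no single subcluster was the main source of every one. With the libraries joined, a marrow adipo-stromal-like subcluster, led by Spp1, Mmp13 and Cp, had the highest Cxcl12 (2572 CPM, 2357 to 2800), Kitl (267 CPM, 201 to 347) and Vcam1 (412 CPM, 329 to 510). In Ctrl alone its Vcam1 level, 431 CPM (328 to 556), was just below that of the Sfrp2- and Tagln-rich cells described next. The adipo-stromal-like subcluster held 24 of the 952 pool cells and 17.9% of the pool's Cxcl12 UMIs, 530 in all. Of these 24 cells, 15 had a Cxcl12 UMI and 8 a Kitl UMI, and all 8 with Kitl also had Cxcl12. Its Kitl level was 447 CPM in 1d, with 71.0% of 31 UMIs in 1 cell, and 175 CPM in Ctrl, with 62.5% of 24 UMIs in 1 cell. Adipoq, a defining gene of such stroma in marrow, had a UMI in 3 of its 8 1d cells and 2 of its 16 Ctrl cells, and Kng1 and Kng2, also on the marker list, had none in Ctrl.

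A Sfrp2- and Tagln-rich subcluster of 78 cells, which also carried the smooth muscle actin gene Acta2, held 58.4% of the pool's Angpt1 UMIs at 291 CPM (258 to 327). It also held 35.0% of Vcam1, 21.8% of Cxcl12 and 21.7% of Jag1, the largest part of each. Cxcl12 was seen in 83.3% of these cells and Angpt1 in 74.4%. A fibroblast-like subcluster of 73 cells, led by Ccl11 and Mfap5, had the highest Lepr level, 187 CPM (142 to 241), and 26.6% of the pool's Lepr UMIs. Its Cxcl12 level was 857 CPM (758 to 966).

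Kitl stood next highest after the adipo-stromal cells in 14 pericyte- and smooth muscle-like cells, at 256 CPM (136 to 437). In Ctrl alone this order was turned, with 254 CPM (10 UMIs in 12 cells) in the pericyte-like cells. In those 14 cells Lepr, Angpt1 and Vcam1 were at 0 UMIs, which at a floor of 3 counts allows up to 59.0 CPM. Jag1 had 254 CPM (223 to 288) in the Sfrp2- and Tagln-rich cells and 236 CPM (122 to 412) in the pericyte-like cells. A Pcdh17- and Coch-rich subcluster of 24 cells had 1410 CPM of Cxcl12 (1181 to 1671) with Lepr at 0 UMIs. At the low end, 49 osteoblast-like cells had 40.0 CPM of Cxcl12 (30.3 to 51.7), 3.4 CPM of Lepr and no Angpt1 UMI, and 117 periodontal ligament and tendon-like cells had 120 CPM of Cxcl12 (99.8 to 143). The clusters were formed on all variable genes, so these differences describe the subclusters and are not tests.

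**Figure D3:**
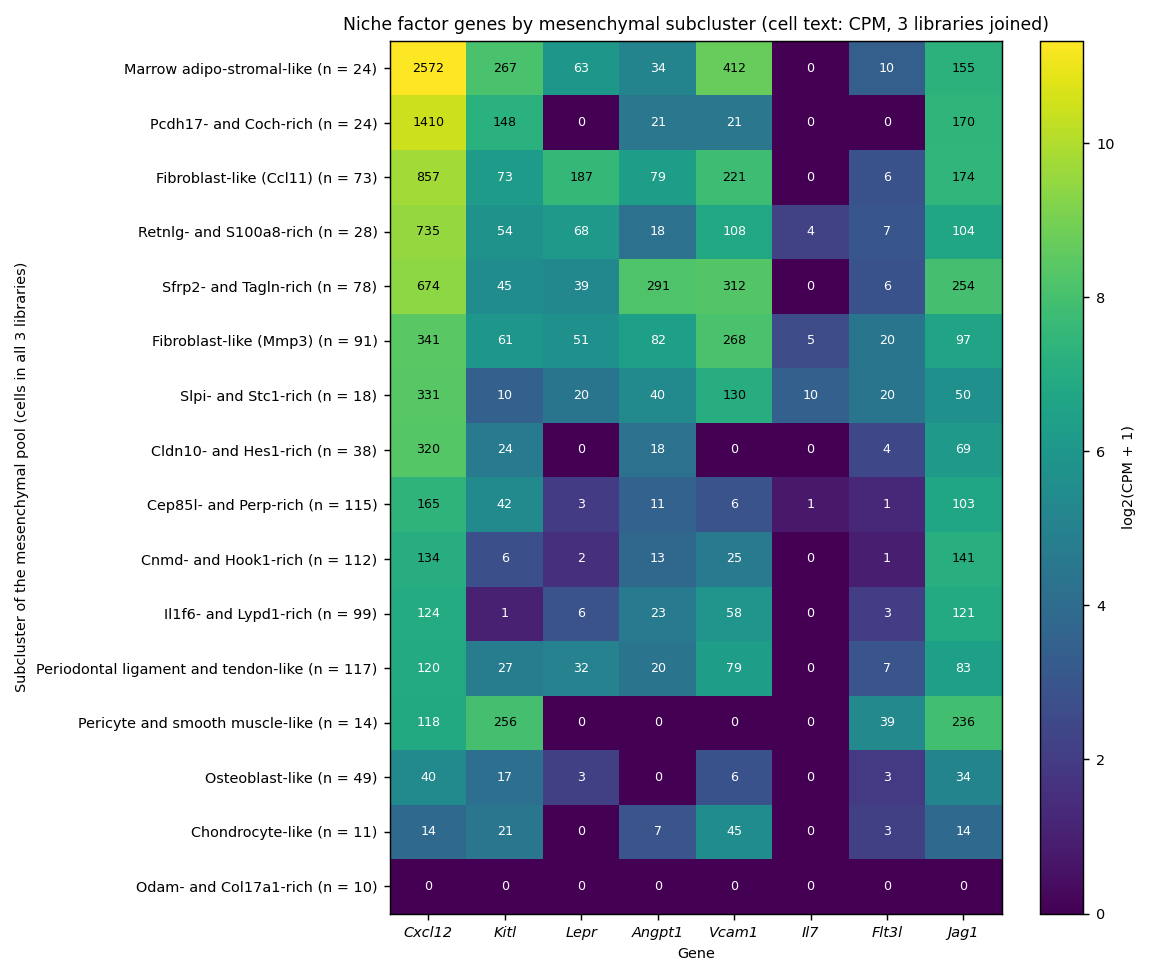
Level (CPM as cell text and log2(CPM + 1) as colour, libraries joined) of the 8 genes in 16 of the 17 subclusters of the mesenchymal pool. The marrow adipo-stromal-like row has the highest value for Cxcl12, Kitl and Vcam1, and the Sfrp2- and Tagln-rich row for Angpt1.

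In 1d none of the 7 members measured in the pool was past 2-fold, where 8.95% of 12006 measured genes were. Cxcl12 had 443 CPM (1071 UMIs) in 1d and 268 CPM (1679 UMIs) in Ctrl, a ratio of 1.65 (1.53 to 1.79). Angpt1 had 60.8 CPM (147 UMIs) in 1d and 45.3 CPM (284 UMIs) in Ctrl, a ratio of 1.34 (1.09 to 1.64). These were the members above Ctrl by more than counting error.

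Jag1 and Vcam1 were below Ctrl in 1d by more than counting error. Jag1 had 91.8 CPM (222 UMIs) in 1d and 136 CPM (856 UMIs) in Ctrl, a ratio of 0.673 (0.578 to 0.781). Vcam1 had 70.3 CPM (170 UMIs) in 1d and 102 CPM (637 UMIs) in Ctrl, a ratio of 0.692 (0.581 to 0.821). Within cluster 13, which holds most of the pool's Vcam1, it had 137 CPM in 1d and 158 CPM in Ctrl, a ratio of 0.867 with an interval (0.721 to 1.04) that includes 1. One 1d cell, the richest in Cxcl12 and described below, held 22 of the 153 Vcam1 UMIs there. Without that cell the ratio in cluster 13 was 0.750 (0.616 to 0.909). Kitl at 41.8 CPM in 1d against 37.8 CPM in Ctrl (ratio 1.11, 0.867 to 1.40) and Lepr at 19.0 CPM in 1d against 23.1 CPM in Ctrl (0.823, 0.577 to 1.15) had intervals that include 1. The cell richest in Cxcl12 held 23.9% of the pool's Lepr UMIs of 1d. Without it the pool ratio was 0.629 for Lepr and 0.968 for Kitl. Flt3l had 6 UMIs in 1d against 31 in Ctrl, a ratio of 0.502 (0.171 to 1.22).

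The Cxcl12 value of 1d leaned on few cells. One cell, in a subcluster with neutrophil RNA, held 172 of the 1071 UMIs (16.1%), together with 26 Adipoq and 733 S100a8 UMIs. Without it the ratio was 1.40, without the marrow adipo-stromal-like cells 1.41, and without the subclusters led by genes of other cell types 1.34. Within cluster 13 alone it was 2.06 (1.88 to 2.25; 707 CPM in 1d and 343 CPM in Ctrl), past the 2-fold line, where 10.2% of measured genes were called. The same cell lies in that cluster, with 21.7% of its 791 1d UMIs, and without it the ratio there was 1.63, not past 2-fold. Summed neutrophil markers in the pool were at 1224 CPM in 1d against 2123 CPM in Ctrl, none of the 9 at 0 in either, and their part in the result was not tested.

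Within the Sfrp2- and Tagln-rich cells, the pool's main Angpt1 source, 3 members were past 2-fold in 1d and all were lower (13.3% of measured genes were past it either way, 7.02% downward). Vcam1 had 150 CPM (56 UMIs in 31 cells) in 1d and 438 CPM (241 UMIs in 43 cells) in Ctrl, a ratio of 0.343. Kitl had 13.4 CPM (5 UMIs) in 1d and 69.1 CPM (38 UMIs) in Ctrl, and Jag1 158 CPM (59 UMIs) in 1d and 334 CPM (184 UMIs) in Ctrl, ratios of 0.194 and 0.474. Angpt1 itself, at 298 CPM in 1d and 300 CPM in Ctrl, gave a ratio of 0.994, and Cxcl12, at 599 CPM in 1d and 711 CPM in Ctrl, gave 0.842. Jag1 was past 2-fold downward in the Cnmd- and Hook1-rich subcluster as well, at a ratio of 0.464, beside 10.8% of measured genes past it either way. The top genes of that subcluster included haemoglobin genes (Hba-a1, Hba-a2, Hbb-bs, Hbb-bt), and 4 of the 8 erythroid markers passed the naming rule in it. It was among the subclusters treated as led by genes of other cell types. The Sfrp2- and Tagln-rich subcluster was 13.8% of the 1d pool and 6.70% of the Ctrl pool.

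In 7d, 2 of the 7 members measured in the pool were past 2-fold, where 30.3% of 11656 measured genes were (17.7% higher and 12.6% lower). Jag1 fell to 50.6 CPM (42 UMIs) in 7d, against 136 CPM (856 UMIs) in Ctrl, a ratio of 0.370 (0.265 to 0.505). Flt3l was higher at 13.2 CPM in 7d against 4.94 CPM in Ctrl, a ratio of 2.68 (1.21 to 5.48) that rests on 11 UMIs in 10 cells of 7d. A share of 2 in 7 is near that over all genes.

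Lepr was above and Vcam1 below Ctrl in the 7d pool by more than counting error, without passing 2-fold. Lepr had 37.3 CPM (31 UMIs) in 7d and 23.1 CPM (145 UMIs) in Ctrl, a ratio of 1.61 (1.06 to 2.39). All 31 UMIs of 7d lay in cluster 13, where Lepr had 51.7 CPM in 7d and 36.6 CPM in Ctrl, a ratio of 1.41 with an interval (0.922 to 2.10) that includes 1. Vcam1 had 57.8 CPM (48 UMIs) in 7d and 102 CPM (637 UMIs) in Ctrl, a ratio of 0.569 (0.415 to 0.763). One cell held 43.8% of those 48 UMIs. Within cluster 13 alone the Vcam1 ratio was 0.264 (0.170 to 0.394; 29.9% of measured genes were past 2-fold there), and with every cell thinned to 1000 UMIs it was also past 2-fold. Cxcl12 (249 CPM in 7d and 268 CPM in Ctrl, ratio 0.931, 0.802 to 1.08), Kitl (27.7 CPM in 7d and 37.8 CPM in Ctrl, 0.733, 0.456 to 1.13) and Angpt1 (56.6 CPM in 7d and 45.3 CPM in Ctrl, 1.25, 0.897 to 1.71) had intervals that include 1. Within cluster 13 alone Cxcl12 had 180 CPM in 7d and 343 CPM in Ctrl, a ratio of 0.525 (0.427 to 0.639) that was below Ctrl without passing 2-fold. Within cluster 17 Cxcl12 went the other way. It had 429 CPM (348 to 522, on 99 UMIs in 25 cells) in 7d and 162 CPM (147 to 178) in Ctrl. Over all measured genes the median log2 ratio of the pool was 0.10 in 1d and 0.26 in 7d, and over the measured members −0.27 and −0.10. Trimmed mean (TMM) scaling shifts every pool log2 ratio by −0.11 in 1d and −0.35 in 7d, which turned Angpt1 in 7d from above to just below Ctrl (log2 −0.01).

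Markers of other cells in the pool differed between the libraries as well. Summed neutrophil markers were at 137 CPM in 7d (4 of 9 at 0) and 2123 CPM in Ctrl (none at 0), and erythroid markers at 585 CPM in 7d and 5177 CPM in Ctrl (2 of 8 at 0 in each). Macrophage markers were at 451 CPM in 7d (6 of 8 at 0) and 210 CPM in Ctrl (none at 0). T cell markers were at 9.63 CPM in 7d (5 of 9 at 0) and 63.4 CPM in Ctrl, and B cell markers at 4.81 CPM in 7d (5 of 8 at 0) and 47.2 CPM in Ctrl. Their part in the 7d ratios was not tested.

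**Figure D4:**
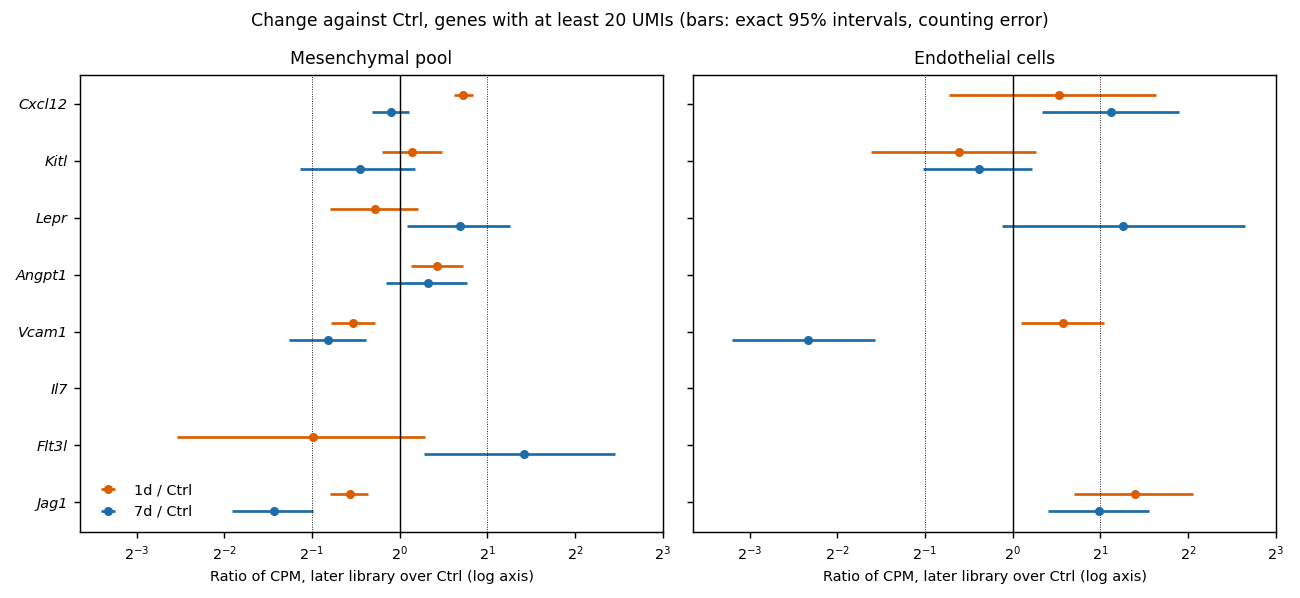
Ratio of CPM (horizontal log axis, with 95% counting intervals) of 1d over Ctrl and 7d over Ctrl for each gene in the mesenchymal pool and in endothelial cells. Genes with under 20 UMIs over the 2 libraries are not drawn. The dotted vertical lines mark 2-fold: Jag1 in 7d lies left of the lower one in the pool (0.370) and close to the upper one in endothelium (1.97).

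The makeup of the pool differed between the libraries together with these levels. Periodontal ligament and tendon-like cells were 9.50% of the pool in Ctrl, 10.3% in 1d and 38.4% in 7d. Cep85l- and Perp-rich cells were 12.6% in Ctrl and 1.16% in 7d, and Cnmd- and Hook1-rich cells 11.5% and 1.16%. Il1f6- and Lypd1-rich cells (10.9% in Ctrl) and osteoblast-like cells (5.92% in Ctrl) had 0 cells in 7d. Sfrp2- and Tagln-rich cells were 6.70% in Ctrl and 4.65% (4 cells) in 7d. Cldn10- and Hes1-rich cells were 0.623% in Ctrl and 17.4% in 7d, and Pcdh17- and Coch-rich cells 2.34% and 8.14%. The part of this makeup in the pool ratios was not tested. The marrow adipo-stromal-like cells were 8 of 224 in 1d (3.57%) and 16 of 642 in Ctrl (2.49%). In 7d they were 0 of 86, which allows a share of up to 3.49%, so their absence could not be told from sampling. The Ccl11-rich fibroblast-like cells, highest in Lepr, were 68 cells in Ctrl, 2 in 1d and 3 in 7d. Within the periodontal ligament and tendon-like cells, Lepr had 58.8 CPM (19 UMIs in 33 cells) in 7d and 22.9 CPM (11 UMIs in 61 cells) in Ctrl, a ratio of 2.56. In these cells Jag1 had 40.2 CPM (13 UMIs) in 7d and 104 CPM (50 UMIs) in Ctrl, a ratio of 0.386, where 22.6% of measured genes were past 2-fold either way. Cxcl12 there was 164 CPM in 7d and 87.6 CPM in Ctrl, a ratio of 1.87 that was not past 2-fold.

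**Figure D5:**
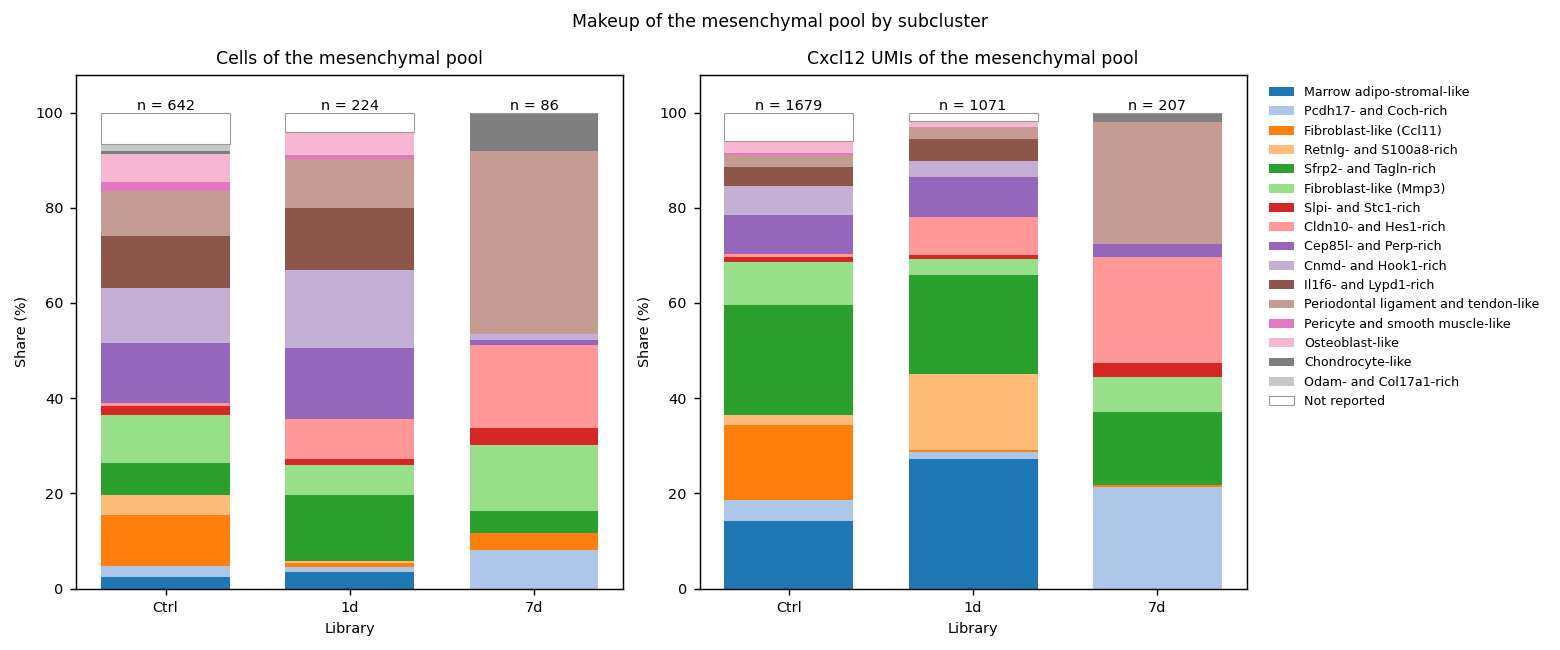
Share of pool cells (left) and of the pool's Cxcl12 UMIs (right), in percent, by subcluster in Ctrl, 1d and 7d, with 1 subcluster that is not reported in white. Marrow adipo-stromal-like cells are 2.49% and 3.57% of the Ctrl and 1d pools and none of the 86 cells of 7d.

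In endothelium the counts rest on 54 cells in Ctrl, 9 in 1d and 24 in 7d. In 1d, 1 of the 4 measured members was past 2-fold (23.1% of 2715 measured genes were, 6.52% upward): Jag1 had 562 CPM (30 UMIs) in 1d and 214 CPM (55 UMIs) in Ctrl, a ratio of 2.62 (1.62 to 4.16). Of the 30 Jag1 UMIs of 1d, 12 lay in 1 cell and 11 in another. Vcam1 at 955 CPM in 1d and 639 CPM in Ctrl gave 1.49 (1.07 to 2.06), with 49.0% of its 51 1d UMIs in 1 cell. That ratio was 1.30 with TMM scaling, 1.08 with doublets kept and 0.942 with every cell thinned to 1000 UMIs. Cxcl12 at 169 CPM (9 UMIs, 8 of them in 1 cell) in 1d and 117 CPM in Ctrl gave 1.44 (0.602 to 3.11), and Kitl at 225 CPM in 1d and 343 CPM in Ctrl gave 0.655 (0.326 to 1.20).

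In 7d endothelium, 3 of the 5 measured members were past 2-fold (32.4% of 3353 measured genes were, 14.8% upward and 17.6% downward). Vcam1 fell to 127 CPM (15 UMIs) in 7d, against 639 CPM (164 UMIs) in Ctrl, a ratio of 0.198 (0.109 to 0.337). Cxcl12 rose to 254 CPM (30 UMIs) in 7d, against 117 CPM (30 UMIs) in Ctrl, a ratio of 2.17 (1.26 to 3.72), with 40.0% of the 7d UMIs in 1 cell. Lepr had 93.0 CPM (11 UMIs) in 7d and 39.0 CPM (10 UMIs) in Ctrl, a ratio of 2.39 whose interval (0.920 to 6.27) includes 1. Kitl at 262 CPM in 7d and 343 CPM in Ctrl gave 0.764 (0.490 to 1.16). Jag1 at 423 CPM in 7d and 214 CPM in Ctrl gave 1.97 (1.32 to 2.95), just short of 2-fold, with 44.0% of the 50 UMIs of 7d in 1 cell, and 0.768 after thinning. With every cell thinned to 1000 UMIs or with TMM scaling only Vcam1 was past 2-fold, and thinning turned the Cxcl12 log2 ratio to −0.19.

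The endothelial cells of the libraries were of different kinds. A Cytl1- and Egfl8-rich subcluster held 4 of the 54 cells in Ctrl, 1 of 9 in 1d and 17 of 24 in 7d. In 7d it contained all 30 endothelial Cxcl12 UMIs, at 349 CPM, 47 of the 50 Jag1 UMIs and 11 of the 15 Vcam1 UMIs. In Ctrl, 22 cells lay in a subcluster led by Cyp1a1 and Selp, with 794 CPM of Vcam1 and 475 CPM of Kitl but only 4 Cxcl12 UMIs. Its top genes included Sele and Il1b, and 5 of the 9 neutrophil markers passed the naming rule in it. Another 19 Ctrl cells, with 3 of 1d and none of 7d, formed a subcluster led by haemoglobin genes (Hbb-bs, Hba-a1). In Ctrl it held 25 of the 30 endothelial Cxcl12 UMIs at 305 CPM, 44.0% of them in 1 cell, and 854 CPM of Vcam1. Summed over the whole class, venous markers were at 4496 CPM in Ctrl, 3896 CPM in 1d and 2833 CPM in 7d, none of the 5 at 0. Selp, one of these 5 markers, held 925 of their 1153 UMIs in Ctrl and 86 of their 335 in 7d. Sinusoidal markers were at 1334 CPM in Ctrl, 1161 CPM in 1d and 1674 CPM in 7d, with 1 of the 6 at 0 in each. Capillary markers were at 561 CPM in Ctrl, 1386 CPM in 1d and 592 CPM in 7d, with 1 of the 5 at 0 in each. Arterial markers were at 912 CPM in Ctrl, 1274 CPM in 1d and 1810 CPM in 7d, with 1 of the 7 at 0 in 1d and none in Ctrl or 7d. Lymphatic markers were at 42.9 CPM in Ctrl, 56.2 CPM in 1d and 2588 CPM in 7d, with 3 of the 5 at 0 in both Ctrl and 1d and none in 7d. A subcluster led by Ccl21a and Mmrn1, with Lyve1 and Reln among its top genes, held 3 cells in Ctrl, 2 in 1d and 2 in 7d. In it 7 of the 9 T cell markers also passed the naming rule. How the lymphatic UMIs of 7d were spread over the cells was not examined. Erythroid markers, a sign of RNA from other cells, stood at 8317 CPM in Ctrl, 244 CPM in 1d and 786 CPM in 7d, with 2, 4 and 3 of the 8 at 0. Neutrophil markers stood at 2340 CPM in Ctrl, 618 CPM in 1d and 186 CPM in 7d, with none, 7 and 6 of the 9 at 0. T cell markers stood at 85.8 CPM in Ctrl, 599 CPM in 1d and 42.3 CPM in 7d, with 2, 2 and 5 of the 9 at 0. The part of vessel type or of this other RNA in the endothelial ratios was not tested.

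Beyond the members, a list of 61 partner and niche genes had a median near that of all genes in the pool, and in 1d a larger part of it was past 2-fold. The list was chosen with earlier results of these data known, so these shares only describe the list. In 1d, 5 of 51 measured list genes were past 2-fold upward and 7 downward (8.95% of all genes were past it either way), with a median log2 ratio of 0.07 beside 0.10 over all genes. Dll4 and Dll1, which encode other Notch ligands, had ratios of 3.35 (34.7 CPM in 1d and 10.4 CPM in Ctrl) and 2.13 (52.9 CPM in 1d and 24.9 CPM in Ctrl), and the Notch target Hey1 had 2.08 (130 CPM in 1d and 62.5 CPM in Ctrl). Mmp9, a protease that releases KIT ligand in marrow, had 77.3 CPM in 1d and 20.2 CPM in Ctrl, a ratio of 3.82. Mmp9 is also on the osteoclast marker list used here and was a top gene of a neutrophil cluster of mixed stage. Lower in 1d were Gas6, a ligand of TAM receptors (235 CPM in 1d and 525 CPM in Ctrl, ratio 0.448), Cxcr4, the CXCL12 receptor (13.6 CPM in 1d and 35.4 CPM in Ctrl, 0.386), Itgb7, an integrin chain (2 UMIs in 1d and 36 in Ctrl, 0.144), and the selectin gene Selp, with 0 UMIs in 1d against 59 in Ctrl, at least 7.58-fold lower against a floor of 3 counts. Cxcr4, Itgb7 and Selp are mostly genes of blood cells or vessels. In the pool, summed T cell markers were at 46.3 CPM in 1d (4 of 9 at 0) and 63.4 CPM in Ctrl (none at 0), B cell markers at 35.6 CPM in 1d (1 of 8 at 0) and 47.2 CPM in Ctrl (none at 0), and erythroid markers at 1519 CPM in 1d (none of 8 at 0) and 5177 CPM in Ctrl (2 at 0). Their part in these ratios was not tested.

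In 7d, 5 of 52 measured list genes were past 2-fold upward in the pool and 11 downward (30.3% of all genes either way), with a median of 0.19 beside 0.26. Igf1, a growth factor, had 451 CPM in 7d and 184 CPM in Ctrl (ratio 2.46), and Bmp4, of the bone morphogenetic proteins, 132 CPM in 7d and 52.8 CPM in Ctrl (2.51). Esm1 had 32 UMIs in 7d and 75 in Ctrl (38.5 CPM in 7d, ratio 3.22) and Adam10, which cuts Notch receptors, 155 CPM in 7d and 64.4 CPM in Ctrl (2.41). The cytokine genes Lif (9.63 CPM in 7d and 227 CPM in Ctrl, 0.0424) and Il11 (10.8 CPM in 7d and 75.4 CPM in Ctrl, 0.144) were lower. So were Nes, which marks some perivascular stroma in mouse marrow (30.1 CPM in 7d and 137 CPM in Ctrl, 0.219), and Grem1, a BMP antagonist (22.9 CPM in 7d and 103 CPM in Ctrl, 0.221). Nes was among the top genes of the Cep85l- and Perp-rich subcluster, which held 81 cells in Ctrl and 1 in 7d.

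In endothelium the list had 4 genes higher and 5 lower of 23 measured in 1d, and 9 higher and 7 lower of 31 in 7d, with median log2 ratios of −0.00 in 1d and 0.46 in 7d, beside −0.02 and −0.01 over all genes (23.1% and 32.4% of which were past 2-fold). In 1d, Csf1, the macrophage growth factor gene, had 487 CPM in 1d and 164 CPM in Ctrl (ratio 2.97) and Foxc1, a transcription factor of niche stroma, had 225 CPM in 1d and 66.3 CPM in Ctrl (3.39). Dll4 (2.08, on 13 UMIs of 1d) and the adhesion gene Icam2 (2.03, on 11 UMIs of 1d) were also past 2-fold. Lower in 1d were Cxcr4 (0.240), Gas6 (0.393), Ptn (0.109) and Esm1, with 0 UMIs in 1d against 43 in Ctrl, at least 2.98-fold lower against the floor.

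In 7d, Bmp6 had 364 CPM (43 UMIs) in 7d and 39.0 CPM (10 UMIs) in Ctrl, a ratio of 9.33, and the Notch ligand gene Jag2 had 211 CPM in 7d and 42.9 CPM in Ctrl (4.93). Icam2 (3.67) and Notch4 (3.01) were higher as well. The inducible adhesion genes Selp (727 CPM in 7d and 3607 CPM in Ctrl, 0.202) and Icam1 (330 CPM in 7d and 1252 CPM in Ctrl, 0.263) were lower, as Vcam1 was. Cxcr4 had 93.0 CPM in 7d and 858 CPM in Ctrl (0.108), and Esm1 had 0 UMIs in 7d, at least 6.61-fold lower.

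Among the receptors of these ligands and of VCAM1, Cxcr4, Tek, Flt3 and Itga4 were highest in classes other than those richest in the ligand. Itgb1 was highest in endothelium, as Vcam1 was. Kit and Notch1 also had their highest values there, as Kitl and Jag1 had, but with intervals that overlapped those of other classes. Cxcr4 was highest in B lineage cells of mixed stage at 1597 CPM, ahead of NK cells at 1157 CPM, while Ackr3, the other CXCL12 receptor, was highest in the pool at 209 CPM, as Cxcl12 was. Kit was at 81.8 CPM (56.9 to 114) in endothelium, 75.5 CPM (67.9 to 83.6) in NK cells and 66.9 CPM (61.3 to 72.9) in cluster 11. Tek was at 210 CPM in endothelium and 3.10 CPM in the next class. Flt3 was highest in cluster 11 (177 CPM) and Itga4 in NK cells (387 CPM), with Itgb1 at 638 CPM in endothelium and 451 CPM in NK cells. Il7r had 229 CPM (220 to 238) in T cells, overlapping B lineage cells of mixed stage at 210 CPM (192 to 230). Notch1 had 470 CPM (407 to 539) in endothelium, overlapping epithelium at 379 CPM (346 to 415). Notch2 was highest in neutrophils (258 CPM) and Notch3 in the pool (40.2 CPM). These are levels with the libraries joined.

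Genes whose log2(CPM + 10) pattern over the 26 clusters was most like that of a member were named as a description, since all points share the same libraries. For Cxcl12 they were Abcc9, Cthrc1 and Flnc (Pearson r 0.997 to 0.988), for Lepr Dkk2, Sema3a and Cp (0.997 to 0.984) and for Kitl Epn2, Inhbb and Cdh13 (0.984 to 0.981). For Jag1 they were Cdc42bpb, Pld2 and Pdlim4 (0.932 to 0.927) and for Angpt1 Mdga1, Eya2 and Ptgfr (0.882 to 0.832). For Flt3l they were Il27ra, Ccdc117 and Slc35e2 (0.832 to 0.821), and for Vcam1 Marveld1, Ptgs1 and Adgrg6 (0.813 to 0.770). Il7, with 27 UMIs in all, was too sparse for this.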

How the data were processed

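The values were raw counts of UMIs per gene and cell, as the authors deposited them, in 1 sparse matrix per library. The submitters' processing notes name CASAVA 1.8, Cell Ranger, Seurat and mm10, and the file headers give Cell Ranger 6.1.1. Alignment settings and the annotation release: not given in the sources used here. Ctrl, 1d and 7d held 11315, 6043 and 7744 barcodes with 41048084, 46119700 and 49998293 UMIs.

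Kept cells had at least 500 UMIs, at least 250 genes and a mitochondrial share of 15% or less. Scrublet in scanpy 1.11.5 scored doublets. Its automatic threshold removed 257 cells of Ctrl. It marked under 0.5% in 1d and 7d, where the highest scores were removed at 0.8% per 1000 barcodes (248 and 403 cells). On log values scaled to 10000 UMIs a cell, the 2000 most variable genes, 30 principal components and 15 neighbours gave Leiden clusters (leidenalg 0.10.2) at resolution 1, without correction between libraries. Naming a cluster or subcluster took at least 3 markers that exceeded the other cells by 1 on the log2 scale in 10% of its cells, with 3 of them in its top 10 genes or a mean of at least 1. A rival lineage within 0.5 left it unnamed or mixed.

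For each class and library the UMIs were summed over cells. Levels carry exact Poisson intervals, shares exact binomial (Clopper-Pearson) ones, and ratios exact conditional ones. Log2 ratios used a pseudocount of 0.5 counts, and a count of 0 a floor of 3. The code was tested on simulated data. The members, the 61-gene list and the markers were chosen with earlier results of these data known. Of the list, up to 4 genes per side were named, those furthest from 1 by the nearer end of the interval with at least 20 UMIs. Likeness needed at least 100 UMIs.

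Alternatives were a stricter filter, no filter, doublets kept, Leiden resolution 0.5 and 2, clustering without the 8 genes, cells thinned to 1000 UMIs, 5% free RNA subtracted, TMM factors (edgeR 4.0.16), no minimum of UMIs, and single clusters and subclusters alone. Leaving out subclusters led by genes of other cell types, the marrow adipo-stromal-like cells, or the 1 cell richest in Cxcl12 (from the pool or from cluster 13) was chosen after seeing the data. One subcluster of the mesenchymal pool is not reported here.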

Additional observations from a re-analysis of the deposited data

Results flagged for a closer look

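Vcam1 in endothelium lay on opposite sides of Ctrl at the 2 times, with intervals that exclude 1: the ratio to Ctrl was 1.49 in 1d (9 cells) and 0.198 in 7d (24 cells). The 1d value was 1.30 with TMM scaling, 1.08 with doublets kept and 0.942 after thinning to 1000 UMIs. In the 1d pool Vcam1 had a ratio of 0.692, below Ctrl, while in 1d endothelium it was above. Jag1 likewise went opposite ways in the 2 classes, with ratios of 0.673 in the pool and 2.62 in endothelium in 1d, and of 0.370 in the pool and 1.97 in endothelium in 7d. In endothelium 12 and 11 of the 30 UMIs of 1d lay in 1 cell each, and 1 cell held 44.0% of the 50 UMIs of 7d, where thinning gave 0.768. None of these differences was tested, since each group had 1 library, and the 1d endothelial values come from 9 cells.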

How the results depend on the processing

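No paired analysis was possible because each group had 1 library and no result came from a test. The count of members past 2-fold in the pool in 1d, 0 as reported, was 1 with no filter, with doublets kept, with 5% free RNA subtracted, with TMM factors and without the marrow adipo-stromal-like cells (Flt3l, lower, in each). It was 1 within cluster 13 alone (Cxcl12, higher, and 0 there without the cell richest in it). Within the Cnmd- and Hook1-rich subcluster, which also held haemoglobin RNA, the count was 1 (Jag1, lower). Within the Sfrp2- and Tagln-rich one it was 3 (Kitl, Vcam1 and Jag1, lower). In 7d the pool count, 2 as reported (Flt3l higher, Jag1 lower), was 2 or 3 under the 16 alternatives. Jag1 was past 2-fold in all 16. Cluster 17 alone and the fibroblast-like cells alone were not among these alternatives. In cluster 17 Jag1 had 73.6 CPM (17 UMIs) in 7d and 132 CPM in Ctrl. In the fibroblast-like cells it had 110 CPM (10 UMIs) in 7d and 126 CPM in Ctrl. Vcam1 was also past 2-fold, lower, with doublets kept, after thinning, with TMM factors, within cluster 13 (with or without the cell richest in Cxcl12) and without the subclusters led by other cell types. Flt3l was not past it after thinning, where Kitl was (lower), nor within the periodontal ligament and tendon-like cells, where Lepr was (higher). The endothelial count in 1d, 1 as reported, was 2 with no filter (Jag1 higher, Kitl lower) and 3 with no minimum of UMIs. In 7d it was 3 as reported, 2 with doublets kept, 4 with no filter or no minimum, and 1 both after thinning and with TMM factors (Vcam1, lower), where thinning left the log2 ratio of Cxcl12 at −0.19 instead of 1.12. The causes were not tested. Among the alternatives of the members' levels in the pool, Jag1 in 7d ranged from a log2 ratio of −2.31 to −1.08. Depth limits Il7 in every class, Flt3l in stroma, and all of endothelium in 1d, where 9 cells held 53387 UMIs.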
